A study of Mus musculus with 2 samples.

Results

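The Hedgehog receptors and response genes were followed across single femur cells: Ptch1, Hhip, Smo, Gli1, Gli2, Gli3, Gas1, Boc and Cdon, which are 9 of the 24866 genes in the expression table. They were chosen by name as the core of Hedgehog reception and its transcriptional response, and every kept well contributed its counts of them. The cells came from 2 littermate mice of strain C57/B6 at postnatal day 6 with the genotype CTSK-cre+ mTMG. In these mice the cathepsin K promoter drives Cre, and a cell with present or past Cre activity carries membrane GFP, so the sorted cells are a lineage-marked mixture and not cells that all express Ctsk at collection. Both animals carried the same alleles and received no treatment named in the labels, so the comparisons are between cell classes within the animals. Each animal filled its own plate, and animal and plate cannot be told apart.

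Hedgehog ligands are secreted proteins that bind the receptor Ptch1 and so free Smo, a membrane protein that Ptch1 otherwise holds inactive. Smo then acts through the primary cilium to change the Gli transcription factors, and Ptch1, Hhip and Gli1 are themselves widely used as transcriptional readouts of the pathway. In growing bone the ligand is mainly Ihh from prehypertrophic chondrocytes, which acts on neighbouring chondrocytes, perichondrium and osteoblast precursors.

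After removal of wells with fewer than 500 detected genes or more than 20% mitochondrial counts, 653 of 658 wells remained, 318 from animal 1 and 335 from animal 2. They held 9767 to 675621 counts each, with medians of 101207 and 119126. Clustering on 95 marker genes that include none of the 9 genes gave 9 clusters. Named from their markers, these were periosteal fibroblast-like (145 wells), chondrocyte-like (97), tendon and ligament-like (74), synovial and articular-like (45), osteoblast-like (29) and pericyte and smooth muscle-like cells (18). Cluster 2 (124 wells) and cluster 3 (112 wells, led by Col2a1 and Lect1) met no list's naming rule and stayed unnamed. Cluster 2 was led by Mmp9, the osteoblast-list genes Alpl and Mmp13, and the neutrophil genes S100a9 and S100a8. Runx2, Sp7 and Spp1, also of the osteoblast list, followed. The 18 pericyte and smooth muscle-like wells (14 and 4 per animal) and the 9 wells of cluster 9, led by globin genes, were too few per animal to test. The label calls the sorted cells mesenchymal, and osteoclast markers summed to at most 189 CPM (counts scaled to a common library size) in any class and animal. In cluster 2 the osteoblast markers summed to 1957 and 2507 CPM, beside 17337 and 14475 CPM in osteoblast-like cells. The neutrophil markers of cluster 2 summed to 20.9 and 5.68 CPM. Ctsk itself reached at least 5 counts in 39.4% of wells.

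The 9 genes were sparse in single wells. With detection defined as at least 5 counts, Gas1 was detected in 26.0% of the 653 wells and Boc in 23.9%. Ptch1 was detected in 15.8%, Smo in 15.6%, Cdon in 14.9%, Hhip in 9.19%, Gli3 in 7.66%, Gli1 in 5.67% and Gli2 in 4.90%. No member reached 5 counts in 196 wells, exactly 1 did in 226 wells and at least 2 did in the rest, with a maximum of 7 members in 1 well. These shares depend on each gene's length and capture as well as on its abundance, so they are compared across classes for 1 gene at a time. In a class sum, fewer cells with a gene and less RNA per cell cannot be told apart.

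Counts summed per animal and class were modelled to set each of the 7 classes against the average of the rest (edgeR's quasi-likelihood test, animal as a block, Benjamini-Hochberg adjustment over 13937 genes). All 9 members passed the filter on low counts. Of the 63 member and class pairs, 1 passed an adjusted p of 0.05: Ptch1 was higher in osteoblast-like cells. The share of all tested genes that were higher in osteoblast-like cells was 0.309%. The share that passed in either direction was 0.474% in osteoblast-like, 0.301% in chondrocyte-like, 1.52% in periosteal fibroblast-like, 0.502% in tendon and ligament-like and 0.0933% in synovial and articular-like cells. It was 0.0359% in cluster 3 and 0% in cluster 2, where 922 genes had an unadjusted p under 0.05 and DESeq2 called 68. At an unadjusted p under 0.05, 15 of the 63 pairs passed, beside 10.1% of all gene and class pairs. DESeq2 called 7 of the 63, beside 3.25% of all pairs, and edgeR on counts thinned to 20000 per well called 5, beside 1.44%. Both included Ptch1 in osteoblast-like cells. The median log2 fold change of the 9 members lay between -0.18 and 0.61 in the 7 classes, beside -0.23 to 0.38 for all tested genes.

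**Figure D1:**
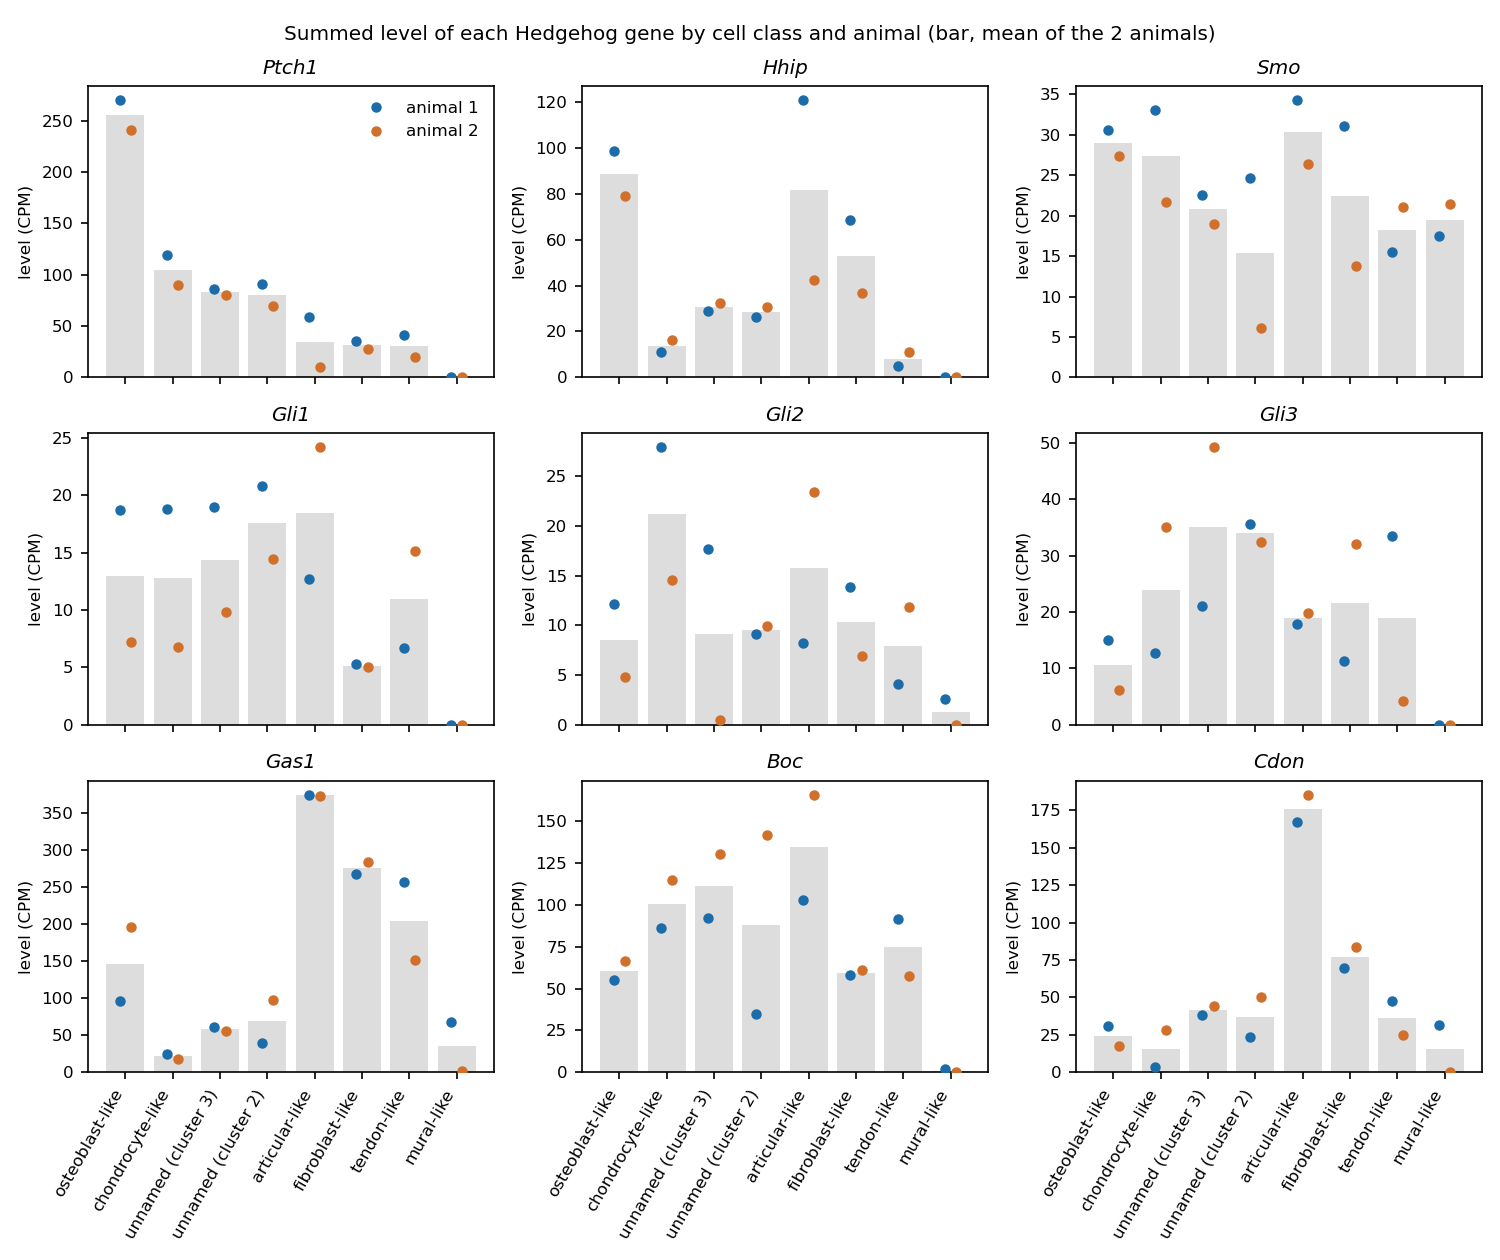
Level of each gene (vertical axis, CPM of the summed wells) in 8 cell classes (horizontal axis), with a point for each of the 2 animals and a bar for their mean. Ptch1 is highest in osteoblast-like cells (270.3 and 241 CPM), whereas Gas1 and Cdon are highest in synovial and articular-like cells. Mural-like means pericyte and smooth muscle-like.

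Ptch1 encodes the Hedgehog receptor and is a target of the pathway it restrains. The gene lies on the minus strand of chromosome 13, positions 63508328 to 63573598 of mm10. In osteoblast-like cells Ptch1 stood at 270.3 CPM in animal 1 and 241 CPM in animal 2 (256 ± 20.5, SD, n = 2). Chondrocyte-like cells followed at 119 and 89.7 CPM. Cluster 3 had 86.3 and 79.9 CPM, and cluster 2 had 90.8 and 69.8 CPM. Levels therefore stepped down from osteoblast-like cells to a middle group of chondrocyte-like cells and the 2 unnamed clusters, and osteoblast-like cells exceeded every other class in both animals.

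A lower group of 3 classes followed. Periosteal fibroblast-like cells had 35.2 and 28.1 CPM of Ptch1. Tendon and ligament-like cells had 41.8 and 19.9 CPM. Synovial and articular-like cells had 58.9 and 10.6 CPM. These 3 classes overlapped one another, and each lay below cluster 2 in both animals. Pericyte and smooth muscle-like cells held 1 Ptch1 count in 18 wells.

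Against the mean of the other classes, Ptch1 was higher in osteoblast-like cells by 2.26 ± 0.35 on the log2 scale (standard error of the fit; edgeR adjusted p = 0.0308). The fitted values in the lower group were -1.56 ± 0.47 for synovial and articular-like, -1.25 ± 0.45 for periosteal fibroblast-like and -1.21 ± 0.45 for tendon and ligament-like cells, and none passed (edgeR adjusted p = 0.289, 0.249 and 0.396). In chondrocyte-like cells the value was 0.85 ± 0.38 (edgeR adjusted p = 0.535). The well with the most Ptch1 counts, 323 or 5.49% of all Ptch1 counts, was an osteoblast-like well of animal 1. Without it the log2 difference was 2.04 with an edgeR adjusted p of 0.0632, and the call was also lost with coarser clusters (2.48, adjusted p = 0.0634) and when wells took the name of their highest marker list (1.86, adjusted p = 0.597).

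Osteoblast-like wells were also the deepest, with a median of 167396 counts. After each well was thinned to 20000 counts, Ptch1 in them was still higher, by 2.07 on the log2 scale (edgeR adjusted p = 0.00795). The 12 chondrocyte markers summed to 7867 and 8240 CPM in osteoblast-like cells, beside 32107 to 34880 CPM in chondrocyte-like cells, 16433 to 17734 CPM in cluster 3 and 135 to 173 CPM in periosteal fibroblast-like cells. Synovial and articular-like cells had 9030 and 13312 CPM of these markers, more than osteoblast-like cells, and were in the lower group for Ptch1. Matn1 had no count in osteoblast-like cells of either animal and Col10a1 none in animal 2. Whether the chondrocyte transcripts in these wells have a part in their Ptch1 level was not tested.

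The share of wells with Ptch1 followed the summed levels. Of osteoblast-like wells 12 of 29 (41.4%, exact 95% binomial interval 23.5% to 61.1%) held at least 5 Ptch1 counts, 6 of 16 in animal 1 and 6 of 13 in animal 2. Of chondrocyte-like wells 27.8% did (19.2% to 37.9%). In cluster 3 the share was 18.8% and in cluster 2 it was 18.5%. It was 6.90% (3.36% to 12.3%) in periosteal fibroblast-like, 6.76% in tendon and ligament-like and 6.67% in synovial and articular-like wells. The fibroblast interval lay below those of the osteoblast-like and chondrocyte-like wells. None of the 18 pericyte and smooth muscle-like wells reached 5 counts, which allows a share of up to 16.7% (3 of 18) or, by the exact interval, 18.5%. All intervals cover counting error only, and counts were treated as reads and not as molecules.

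Among detected wells the level was less ordered than the share. In the 12 osteoblast-like wells Ptch1 ranged from 74.3 to 2020.2 CPM with a median of 423. In the 27 chondrocyte-like wells it ranged from 53.3 to 619 CPM with a median of 289.8. The 10 periosteal fibroblast-like wells had a median of 401 CPM and reached 1798 CPM. Medians and ranges of the detected wells thus overlapped between periosteal fibroblast-like and osteoblast-like cells, while the shares of such wells differed.

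**Figure D2:**
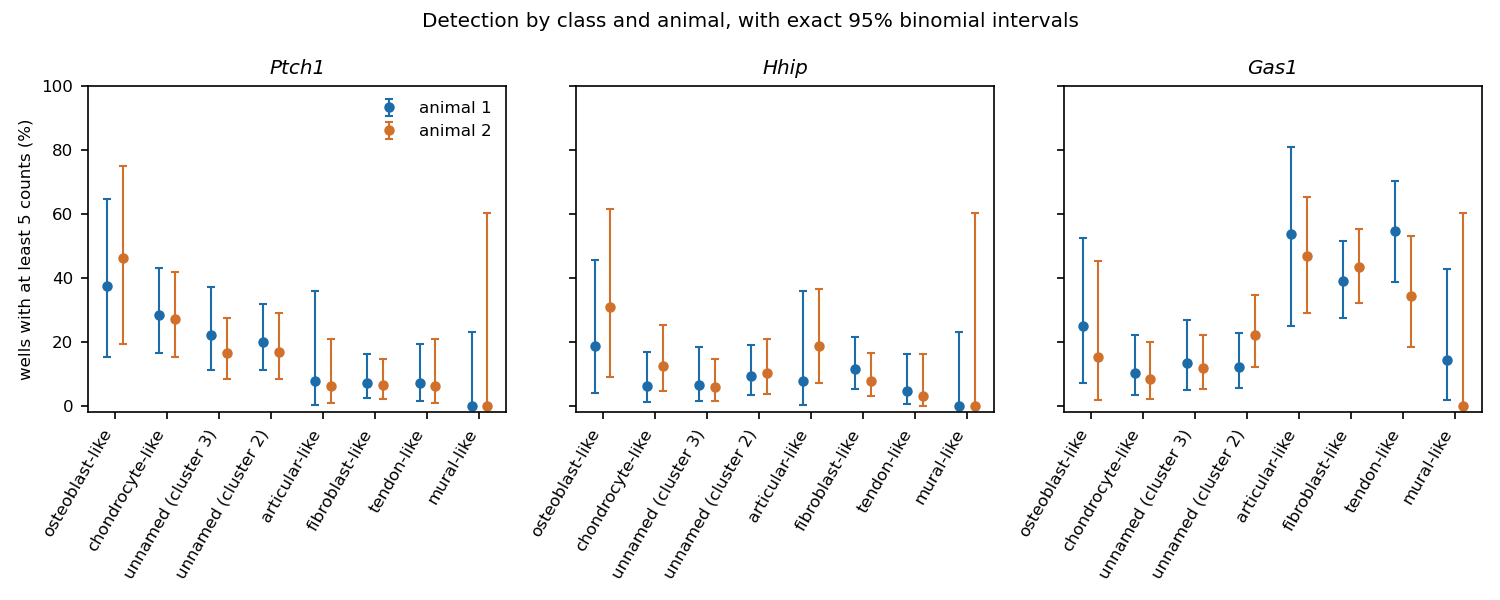
Share of wells with at least 5 counts (vertical axis, percent) of Ptch1, Hhip and Gas1 in 8 classes (horizontal axis), with a point and an exact 95% binomial interval for each of the 2 animals. Ptch1 is detected most often in osteoblast-like wells (37.5% and 46.2%), and Gas1 in articular-like, tendon-like and fibroblast-like wells.

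Hhip encodes a membrane protein that binds Hedgehog ligands and is induced by the pathway. It lies on the minus strand of chromosome 8, positions 79965851 to 80058006. Osteoblast-like cells had 98.6 and 78.8 CPM of Hhip. In animal 1 these included the well with the most Hhip counts of all, 175 in 1 of 16 wells. Synovial and articular-like cells had 121 and 42.4 CPM, where all 162 counts of animal 1 came from 1 of 13 wells. Periosteal fibroblast-like cells had 68.6 and 36.9 CPM. These 3 classes had the highest means for Hhip. The synovial and articular-like values overlapped both others. Osteoblast-like cells exceeded periosteal fibroblast-like cells in both animals, with the 175-count well included in animal 1.

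Cluster 3 (29.0 and 32.5 CPM) and cluster 2 (26.1 and 30.6 CPM) had lower Hhip levels that overlapped each other. Chondrocyte-like cells had 10.97 and 16.1 CPM. Tendon and ligament-like cells were lowest at 5.16 and 10.95 CPM. Chondrocyte-like cells, second highest for Ptch1, were thus second lowest of the 7 tested classes for Hhip. The fitted Hhip difference was 1.63 ± 0.44 (log2) in osteoblast-like and -2.19 ± 0.61 in tendon and ligament-like cells (edgeR adjusted p = 0.166 and 0.221), and neither passed. DESeq2 called both (adjusted p = 0.0416 and 0.0149), and the thinned counts called the first (edgeR adjusted p = 0.0272). No other alternative setting called either difference. In the settings without a call the osteoblast-like difference ran from 0.79 to 1.86. The tendon and ligament-like difference ran from -2.84 to -1.61. The lowest edgeR adjusted p in these settings was 0.115 and 0.135. No Hhip count was seen in pericyte and smooth muscle-like wells.

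Ptch1 and Hhip are the 2 of the 9 genes whose mean level was highest in osteoblast-like cells, with the highest Hhip well included. The 250 bases before each gene's start in RefSeq (build GRCm38.p6, minus strand) are shown for that reason, with any CACCC or its reverse complement GGGTG, the core of the Gli recognition motif, in capitals. The Ptch1 window is chr13:63565736-63565985, at a start inside the full gene span given above, and the Hhip window is chr8:80058009-80058258.
Ptch1: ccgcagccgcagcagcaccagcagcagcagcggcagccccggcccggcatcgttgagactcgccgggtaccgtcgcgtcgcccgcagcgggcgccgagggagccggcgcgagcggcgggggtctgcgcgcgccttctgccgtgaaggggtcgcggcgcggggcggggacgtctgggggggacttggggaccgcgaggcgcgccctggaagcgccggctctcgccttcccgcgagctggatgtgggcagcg
Hhip: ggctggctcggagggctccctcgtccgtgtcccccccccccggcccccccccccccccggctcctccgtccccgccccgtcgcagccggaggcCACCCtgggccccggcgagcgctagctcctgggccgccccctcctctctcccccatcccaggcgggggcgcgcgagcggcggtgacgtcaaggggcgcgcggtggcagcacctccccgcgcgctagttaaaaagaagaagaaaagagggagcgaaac

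RefSeq promoter windows of 300 bases, from 250 before to 50 after the start, were matched for 7 of the 9 genes: Ptch1, Hhip, Smo, Gli2, Gli3, Gas1 and Cdon. None of the 7 held the motif GACCACCCA on either strand, exactly or with 1 mismatch. Of all 32851 RefSeq promoter windows of that length, 0.253% held it exactly and 6.74% with up to 1 mismatch. The core CACCC, which is part of that motif, occurred in 57.5% of all windows. It was found once each in Hhip and Gli3, at 2 places in Smo, at 3 in Gli2 and not in Ptch1, Gas1 or Cdon. Like the Ptch1 window, those of Cdon (chr9:35451826-35452125) and Gli3 (chr13:15463473-15463772) lie inside the full gene spans given below. For these genes the outermost start was not covered. The Ptch1 window held 47 CpG dinucleotides, more than 98.6% of all windows did, and the Hhip window held 30, beside a median of 7.

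Gas1, Boc and Cdon encode cell-surface co-receptors that bind Hedgehog ligand together with Ptch1. Gas1 lies on chromosome 13 (60174405 to 60177365, minus strand), Boc on chromosome 16 (44485049 to 44558897, minus strand) and Cdon on chromosome 9 (35421128 to 35507652, plus strand). Over the 14 sums of class and animal, the Pearson correlation with Ptch1 on the log2(CPM + 2) scale was -0.51 for Gas1 and -0.59 for Cdon, a description of points that share 2 libraries. The same measure was -0.25 for Boc and 0.26 for Hhip.

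Gas1 stood at 374 and 373 CPM in synovial and articular-like cells. Periosteal fibroblast-like cells had 268 and 284 CPM, and tendon and ligament-like cells had 256 and 151 CPM. Osteoblast-like cells had 96.7 and 196 CPM. The 3 fibrous and articular classes were the top of the order by their means, and the first 2 did not overlap any other class. Cluster 2 (39.5 and 97.8 CPM) and cluster 3 (61.4 and 56.0 CPM) followed, and chondrocyte-like cells were lowest at 25.1 and 18.2 CPM, below every other tested class in both animals. The fitted log2 differences were -2.73 ± 0.47 in chondrocyte-like, 1.43 ± 0.34 in periosteal fibroblast-like and 1.79 ± 0.33 in synovial and articular-like cells. With edgeR adjusted p of 0.0634, 0.0901 and 0.0973 none passed, while DESeq2 called all 3 (adjusted p = 1.99e-09, 0.0116 and 0.000278). On the thinned counts edgeR also called all 3 (adjusted p = 0.00355, 0.00914 and 0.0145). Over the alternative settings the chondrocyte-like difference ran from -3.06 to -0.55. The highest edgeR adjusted p in these settings was 0.885 in chondrocyte-like, 0.278 in periosteal fibroblast-like and 0.366 in synovial and articular-like cells.

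Gas1 detection differed between the classes in the same way. It reached 5 counts in 48.9% of synovial and articular-like (33.7% to 64.2%), 45.9% of tendon and ligament-like and 41.4% of periosteal fibroblast-like wells (33.3% to 49.8%). Only 9.28% of chondrocyte-like wells did so (4.33% to 16.9%). In osteoblast-like wells the share was 20.7%, and 2 of 13 wells reached 5 counts in animal 2, where the summed level was 196 CPM.

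Cdon stood at 167 and 185 CPM in synovial and articular-like cells, above every other class in both animals. Periosteal fibroblast-like cells followed at 69.8 and 83.7 CPM and were above the remaining 5 tested classes. Those 5 classes ranged from 3.29 CPM (chondrocyte-like, animal 1) to 50.1 CPM (cluster 2, animal 2) and largely overlapped. The fitted log2 difference in synovial and articular-like cells was 2.17 ± 0.55 (edgeR adjusted p = 0.227), which did not pass, and DESeq2 gave 2.29 (adjusted p = 0.0165). In the other tested settings, thinned counts included, the difference ran from 1.62 to 2.28. It passed in none of them (edgeR adjusted p = 0.133 to 0.748). Cdon was detected in 37.8% of these wells (23.8% to 53.5%) and in 7.22% of chondrocyte-like wells (2.95% to 14.3%).

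Boc showed no such order. Its levels ran from 34.9 CPM (cluster 2, animal 1) to 166 CPM (synovial and articular-like, animal 2), and each class overlapped its neighbours in the order of means. Within cluster 2 the 2 animals stood at 34.9 and 142 CPM, further apart than the lowest and highest class means (59.5 and 134 CPM). No Boc comparison passed (lowest edgeR adjusted p = 0.636). Pericyte and smooth muscle-like wells were the exception in level, with 2 Boc counts in 18 wells, and this class was not tested.

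**Figure D3:**
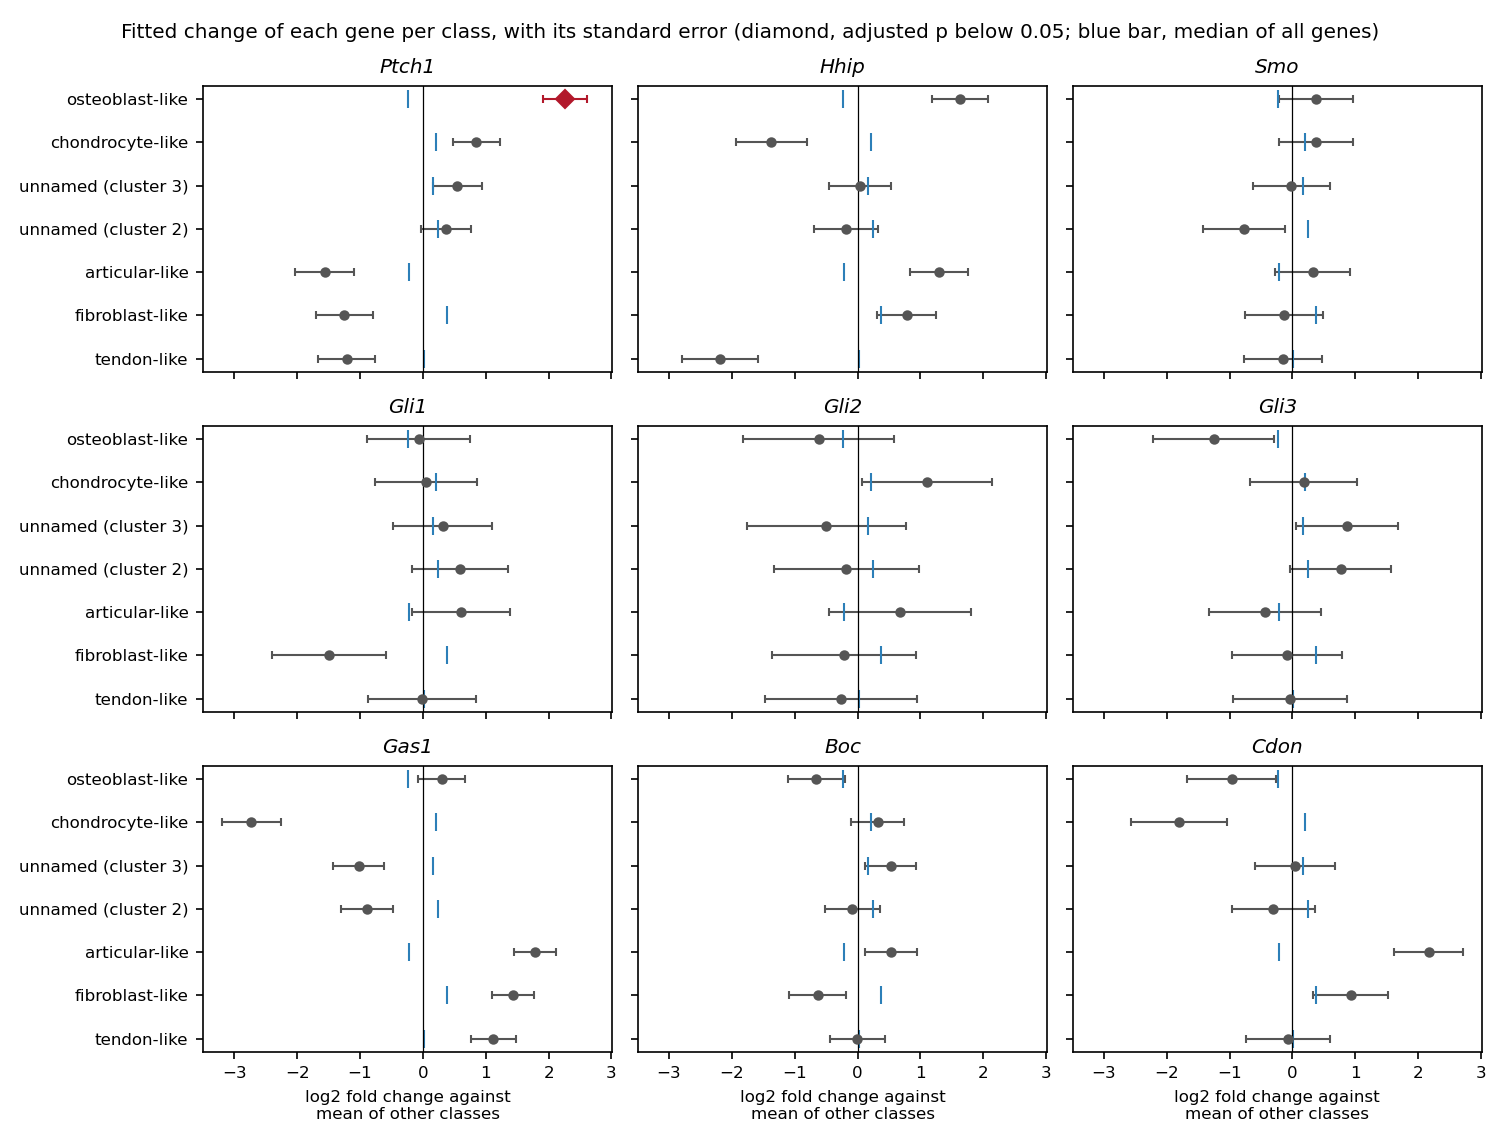
Fitted log2 fold change (horizontal axis) of each gene in 7 classes against the mean of the other classes (vertical axis, class), with its standard error; blue bars give the median of all tested genes. The red diamond, Ptch1 in osteoblast-like cells at 2.26, is the single value with an adjusted p below 0.05.

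Smo encodes the signal transducer that Ptch1 holds inactive (chromosome 6, 29735503 to 29761365, plus strand). Its levels ran from 6.12 CPM (cluster 2, animal 2) to 34.3 CPM (synovial and articular-like, animal 1). Every class overlapped its neighbours, and all 7 edgeR adjusted p were 1. Smo was also present in pericyte and smooth muscle-like cells, at 17.5 and 21.4 CPM, where Ptch1, Hhip, Gli1 and Gli3 were at or under the level of 3 counts. No class therefore stood apart for Smo beyond the spread between the animals.

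The Gli genes encode the transcription factors of the pathway: Gli1 is an activator and itself a target, Gli2 acts mainly as an activator and Gli3 mainly as a repressor. They lie on chromosome 10 (Gli1, 127329882 to 127341974, minus strand), chromosome 1 (Gli2, 118834132 to 119053619, minus strand) and chromosome 13 (Gli3, 15463235 to 15730026, plus strand). Gli1 stood at 18.7 and 7.21 CPM in osteoblast-like and at 18.8 and 6.78 CPM in chondrocyte-like cells. Cluster 2 had 20.8 and 14.4 CPM, and cluster 3 had 19.0 and 9.84 CPM. Synovial and articular-like cells had 12.7 and 24.2 CPM, and tendon and ligament-like cells had 6.70 and 15.2 CPM. These 6 classes overlapped, and periosteal fibroblast-like cells lay below all of them at 5.28 and 5.06 CPM.

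The fitted Gli1 difference in periosteal fibroblast-like cells was -1.49 ± 0.91 (log2; edgeR adjusted p = 0.550, the lowest of the 7). In osteoblast-like cells, where Ptch1 was higher, it was -0.06 ± 0.82 (edgeR adjusted p = 1). Gli1 was detected in 3 of 29 osteoblast-like wells, so its interval (2.19% to 27.4%) was wide. The standard errors of the 7 Gli1 differences ran from 0.76 to 0.91, beside 0.35 for Ptch1 in osteoblast-like cells, and no class difference in Gli1 was detectable at this depth.

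Gli2 had its highest mean in chondrocyte-like cells (27.9 and 14.5 CPM), and Gli3 its highest mean in cluster 3 (21.1 and 49.2 CPM). Gli3 had its lowest mean in osteoblast-like cells (15.1 and 6.25 CPM). All neighbouring classes overlapped for both genes, and the lowest edgeR adjusted p was 0.924 for Gli2 and 0.715 for Gli3. The animals differed most within tendon and ligament-like cells for Gli3 (33.5 and 4.21 CPM) and within cluster 3 for Gli2 (17.7 and 0.492 CPM).

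Co-detection with Ptch1 was read in the same wells. Wells with Ptch1 were deeper (median 139525 counts against 102896), so shares are given both as counted and after thinning every well to 20000 counts, with detection then at 1 count. Gli1 was detected in 15 of 103 wells with Ptch1 (14.6%, 8.39% to 22.9%) and in 22 of 550 wells without it (an interval of 2.52% to 5.99%). In animal 1 the shares were 15.1% and 4.91%, and in animal 2 they were 14.0% and 3.16%. After thinning they were 12.1% and 4.28% in animal 1 and 15.4% and 3.53% in animal 2. With all classes pooled, the share of wells with Gli1 was therefore higher among wells with Ptch1 in both animals. This also held at an equal number of counts per well. The pooled classes differ in Ptch1, and the numbers within 3 of them are given below by animal. The number of genes per well was not matched: in cluster 2, cluster 3 and chondrocyte-like cells together, wells with Ptch1 had a median of 2416.5 and 2391.5 genes per animal and wells without it 2145 and 2024.5. The thinned intervals overlapped in animal 1 (4.99% to 23.3% against 2.16% to 7.53%) and did not in animal 2 (6.88% to 28.1% against 1.71% to 6.40%). Wells of 1 animal are not replicates, and with 2 animals this was not tested.

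Hhip, the other response gene, was detected in 16.5% of wells with Ptch1 (9.92% to 25.1%) and in 7.82% of wells without it (5.72% to 10.4%). After thinning the shares were 17.2% and 7.39% in animal 1 and 15.4% and 10.6% in animal 2. The direction was the same in both animals, and the intervals overlapped in each. These shares pool classes that differ in both genes. After thinning, Hhip was found in 2 of 26 wells with Ptch1 and 11 of 98 without in cluster 2. The numbers were 2 of 21 and 7 of 90 in cluster 3, and 3 of 29 and 6 of 68 in chondrocyte-like cells. They were 6 of 13 and 2 of 15 in osteoblast-like and 2 of 10 and 13 of 134 in periosteal fibroblast-like cells. Smo, Gli2 and Boc were found more often with Ptch1 in animal 1 after thinning (31.0% against 14.8%, 13.8% against 5.06% and 34.5% against 22.6%). In animal 2 Smo (9.62% against 12.7%) and Boc (19.2% against 27.2%) had the opposite order, and Gli2 stood at 7.69% against 4.95%.

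Over all classes, Gas1 was found in 17.2% of wells with Ptch1 (8.59% to 29.4%) and 31.5% of wells without it (25.9% to 37.6%) in animal 1, and in 25.0% against 27.6% in animal 2, with overlapping intervals in each. These shares pool classes that differ in both genes, and the order varied within classes. Gas1 was found in 5 of 29 chondrocyte-like wells with Ptch1 and 6 of 68 without, and in 4 of 21 and 12 of 90 wells of cluster 3. In cluster 2 it was found in 4 of 26 and 21 of 98 wells, and in periosteal fibroblast-like cells in 3 of 10 and 59 of 134. Over both animals Gli3 was found in 11 of 110 wells with Ptch1 and 44 of 540 without, and Cdon in 13.6% against 16.7%, with overlapping intervals. Across the 653 wells the Pearson correlation of each gene with Ptch1 on a log scale was weak, from -0.10 for Gas1 to 0.14 for Gli1. Wells share their library and vary in depth, and these values describe sparse counts.

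**Figure D4:**
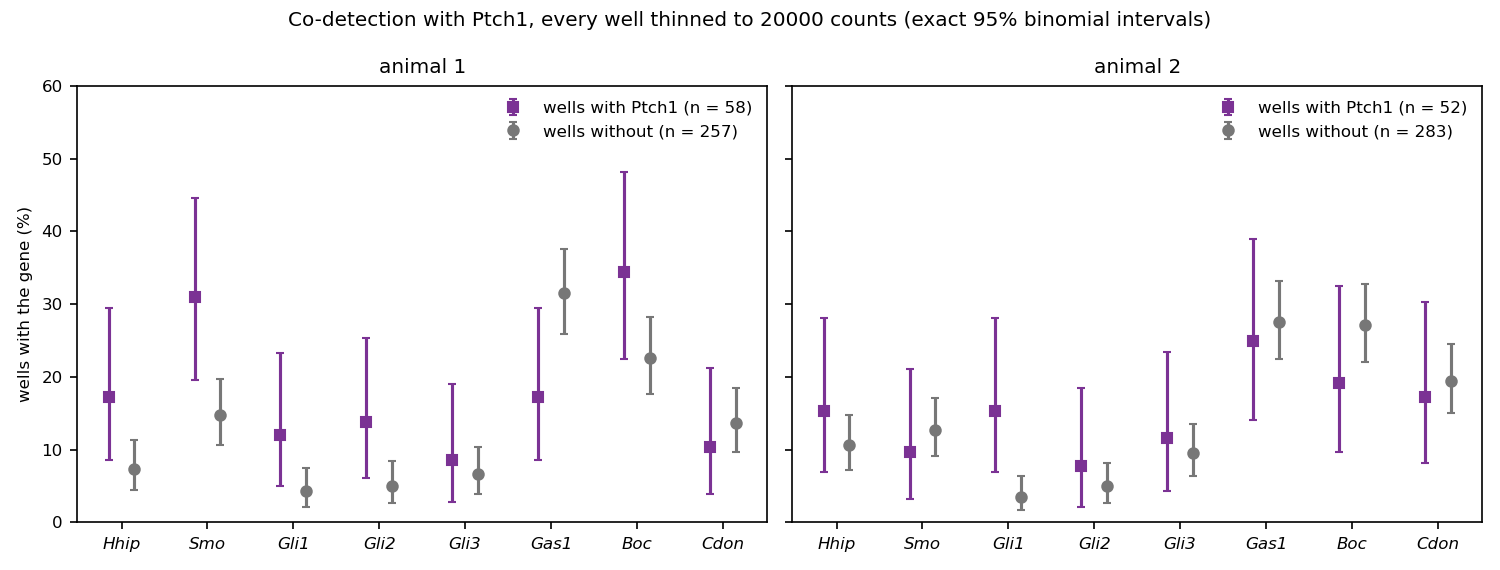
Share of wells with each gene (vertical axis, percent) among wells with and without Ptch1, for 8 genes (horizontal axis) and each animal, after thinning to 20000 counts, with exact 95% binomial intervals. With all classes pooled, Gli1 is found in 12.1% and 15.4% of wells with Ptch1 against 4.28% and 3.53% of wells without it.

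To compare wells with and without Ptch1 inside the classes, counts were summed by class, animal and Ptch1 status in the 3 classes with enough wells, cluster 2, cluster 3 and chondrocyte-like cells. These sums held 76 wells with Ptch1 and 256 without, in 6 pairs. None of 8405 genes passed (edgeR's quasi-likelihood test with Benjamini-Hochberg adjustment, a share of 0%), 372 had an unadjusted p under 0.05 and DESeq2 called 164. Gli1 averaged 18.4 ± 21.3 CPM with Ptch1 and 15.3 ± 11.5 CPM without it (SD over 6 sums) and was higher in 3 of 6 pairs. Its fitted difference was -0.28 ± 1.95 (log2; edgeR adjusted p = 0.998), at -2.41 in animal 1 alone and 2.57 in animal 2 alone. Hhip averaged 16.5 ± 19.3 CPM with Ptch1 and 27.5 ± 11.7 CPM without it. The fitted difference was -1.40 ± 0.69 for Boc and 0.26 ± 0.69 for Gas1, beside a median of -0.37 over all genes tested. With a standard error of 1.95 for Gli1, the fit cannot decide whether its summed level differed inside these 3 classes. The mean Gli1 level over them was 9.38 CPM with Ptch1 and 24.1 CPM without in animal 1. In animal 2 it was 27.4 and 6.44 CPM, so the animals had opposite orders. Within these classes, after thinning, Gli1 was found in 5 of 29 chondrocyte-like wells with Ptch1 and 3 of 68 without. The numbers were 3 of 21 and 2 of 90 in cluster 3, and 2 of 26 and 7 of 98 in cluster 2. In animal 1, chondrocyte-like cells had 2 of 14 and 2 of 35. Cluster 3 had 0 of 10 and 2 of 34 there, and cluster 2 had 1 of 16 and 4 of 49. In animal 2, chondrocyte-like cells had 3 of 15 and 1 of 33. Cluster 3 had 3 of 11 and 0 of 56 there, and cluster 2 had 1 of 10 and 3 of 49. The share was thus higher with Ptch1 in all 3 classes of animal 2, but only in chondrocyte-like cells of animal 1.

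The genes whose levels over the 14 class and animal sums were most like Ptch1, of 5248 with a mean of at least 20 CPM, were Cope (Pearson r = 0.90), Fxyd3 (0.85), Lbh (0.83), Gadd45g (0.83) and Slc13a5 (0.82). Cope encodes a subunit of the coatomer coat, and Slc13a5 a citrate transporter. These are values over points that share 2 libraries and are a description.

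Hedgehog ligands were rare in the sorted cells. Ihh reached 5 counts in 3 of 653 wells (0.459%), 1 each in cluster 3, chondrocyte-like and osteoblast-like cells, and all 3 of these wells also held at least 5 Ptch1 counts. Shh reached 5 counts in no well, which allows a share of up to 0.459% (3 of 653) or, by the exact interval, 0.563%, and Dhh in 1 periosteal fibroblast-like well. The remaining pathway genes were taken as 4 lists: ligands, release and co-receptors, signal transduction, cilium, and reported targets. Their 66 tested genes in 7 classes made 462 tests, of which 3 were higher and 1 was lower (edgeR adjusted p under 0.05). Over all tested genes, 0% to 1.52% passed per class. None of the pathway calls was in osteoblast-like cells, where 0.474% of all tested genes passed. No gene of the signal transduction list (19 tested) or of the cilium list (20 tested) passed in any class (lowest edgeR adjusted p = 0.144 and 0.291). At such low shares, lists of this size without a call are not set apart from other genes. Their most abundant genes were Csnk1a1, which encodes casein kinase 1 alpha, at 174 CPM over all wells, and Rab34, which encodes a small GTPase needed to build the cilium, at 211 CPM.

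Osr1, a transcription factor of connective tissue that has been reported as a Hedgehog target, was higher in periosteal fibroblast-like cells. It had 134 and 97.8 CPM there and at most 8.48 CPM in any other tested class (edgeR adjusted p = 0.0240). Because several classes had no Osr1 or Scube2 count, their fitted fold changes depend on the prior count and are not given. In the untested pericyte and smooth muscle-like cells Osr1 had 37.5 CPM in animal 1 and none in animal 2. Scube2, which helps release lipid-modified ligand, was higher in tendon and ligament-like cells at 38.4 and 20.8 CPM (edgeR adjusted p = 0.0474). That value rests on 5 wells of animal 1 and 1 well of animal 2. The cyclin gene Ccnd2 was lower in chondrocyte-like cells, at 148 and 139 CPM, with a log2 difference of -1.17 ± 0.17 (edgeR adjusted p = 0.0322). Every other tested class had more Ccnd2 in both animals, from 201 CPM in periosteal fibroblast-like to 564 CPM in synovial and articular-like cells. The calls of Osr1, Scube2 and Ccnd2 were lost in 2, 4 and 3 of the alternative settings, with adjusted p from 0.0548 (Ccnd2) to 0.497 (Ccnd2). The Osr1 call held in 5 settings and the Scube2 call in 3, so the Scube2 call was lost more often than it held.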

How the data were processed

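Single GFP-sorted wells were processed by template switching and PCR, pooled and sequenced, per the labels' protocols. The deposited table of the authors holds raw counts of 24866 genes in 658 wells; the submitters' processing notes name mm10 and CASAVA. For the aligner, counter, annotation and any collapsing of duplicates, the method is not given in the sources used here, so a count was read as a read and not as a molecule. Gene positions are those of the GENCODE models on the same build. Both plates use the same 95 well barcodes, so wells were kept apart by plate and quadrant. No doublet caller was run, since wells were sorted to hold 1 cell.

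The genes and all lists were chosen with earlier results of these data known. Wells were clustered with leidenalg 0.10.2 (Python 3.11.15; 20 components, 15 neighbours, resolution 1) on log counts per 10000 of the marker genes, centred per animal. A cluster took a list's name where at least 3 markers of that list met both of these conditions. The marker's mean level was higher by at least 1 (log2) than in all other wells. The marker also had at least 1 count in at least 10% of the cluster's wells. That list had the highest mean ratio, and no list held more of the cluster's 10 leading genes. A minimum of 10 wells and a minimum depth also applied. Levels in CPM are summed counts over summed well totals. Counts summed per animal and class, for classes with at least 10 wells per animal, were tested with edgeR 4.0.16 (R 4.3.3; TMM, filterByExpr, quasi-likelihood, 6 residual degrees of freedom, marker genes left out). Animal was a block because the classes of 1 animal share a plate and library. Fold changes are relative to the other classes' average on the log scale, and their standard error is the absolute value over the square root of the F statistic. Ptch1 status was read after thinning to 20000 counts, which left out 3 wells, and tested with a term for each class and animal (5 residual degrees of freedom). DESeq2 1.42.0 was an alternative. The scripts were tested on simulated data. Named were the 9 genes, listed pathway genes that passed and the 5 genes most like Ptch1. One listed pathway gene that passed is not reported here. With 2 animals no permutation over samples can reach 0.05. The animal block takes out a shift shared by all classes. The class p-values therefore rest on how class differences varied between these 2 littermates. In the Ptch1 comparison the pairs of class and animal act as replicates, although they come from only 2 animals.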

Additional observations from a re-analysis of the deposited data

Results flagged for a closer look

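Counts of 1 member were found in wells outside the comparisons. Among the 5 wells left out for few genes or a high mitochondrial share, 1 held 14 Boc counts, above the 3 counts that a count of 0 allows, while each of the other 8 genes had at most 1 count in any of these wells. Boc reached 5 counts in 23.9% of the kept wells, with a median of 37 counts in them. The left-out well therefore does not stand apart from the kept wells.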

How the results depend on the processing

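The log2 difference of Ptch1 in osteoblast-like cells kept its direction in every alternative and lay between 1.98 and 2.56 when either animal was left out, a value with no test. It lost its call at Leiden resolution 0.5 (2.48), with wells named by their highest marker list (1.86) and without the well highest in Ptch1 (2.04). The count of genes past the threshold moved by over 1.5 times with the DESeq2 Wald test, to 373 in chondrocyte-like (42 by edgeR), 925 in osteoblast-like (66), 557 in periosteal fibroblast-like (212), 559 in synovial and articular-like (13), 494 in tendon and ligament-like cells (70), 68 in cluster 2 (0), 192 in cluster 3 (5) and 164 between wells with and without Ptch1 (0). With wells thinned to 20000 counts the counts in that order were 139, 190, 392, 96, 160, 22 and 49 for the 7 classes. With the highest marker list they were 112, 5, 69, 0 and 10 for the 5 named classes. Tendon and ligament-like cells had 34 at Leiden resolution 0.5, which gave no synovial and articular-like class and no cluster 3, and cluster 3 had 8 with no filter on low counts. With no replicate block for the animal, osteoblast-like cells had 145 and cluster 3 had 11, the Ptch1 call in osteoblast-like cells held (adjusted p = 0.0436), and between wells with and without Ptch1 the block changed no call. Ptch1 detection in chondrocyte-like wells rose to 40.2% at a minimum of 1 count. Between wells with and without Ptch1, the Gli1 difference turned to 0.031 with a class term only and no replicate block, 0.21 with status after thinning to 10000 counts and 0.11 with status from unthinned counts. Leaving out either animal gave -2.41 to 2.57 for Gli1 and -2.97 to 0.046 for Boc. DESeq2 size factors in place of TMM moved the median of all genes from -0.23 to -0.13 in osteoblast-like and from -0.21 to -0.11 in synovial and articular-like cells. The causes were not tested. Thinned co-detection was added after seeing the data. Gli1, Gli2 and Gli3 were detected in 37, 32 and 50 of 653 wells, which limits what these sums can show.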
